A study of Mus musculus with 16 samples.

Results

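Dimethylation of histone H3 at lysine 4 (H3K4me2) was described within mTEC-I, one of 4 sorted populations of medullary thymic epithelial cells from C57BL/6 mice. Cells of mTEC-I were MHC class II low and carried Itgb4. The members are the peaks of the population's own deposited list, 7036 regions called by the authors on both mTEC-I libraries combined, and 7034 after the 2 mitochondrial peaks were set aside. A table of 29472 peaks merged over the 4 populations gives the level of the same regions in each library. Each population has 2 H3K4me2 libraries, and 8 further samples of whole-cell extract are not analysed here. All 4 populations came from thymus, lacked the leukocyte antigen CD45 and carried Epcam. The gate of mTEC-II was high MHC class II, that of mTEC-III was Ly6D, and that of mTEC-IV was L1cam without Itgb4 at low MHC class II. The labels give no age or sex, and do not say whether replicates came from separate mice, so the spread behind each p-value is that between libraries and may be technical.

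Medullary thymic epithelial cells display proteins typical of other organs to maturing thymocytes, and thymocytes that react strongly to them are removed. H3K4me2 lies around active promoters and enhancers, and wide domains of H3K4 methylation are known from genes of cell identity such as developmental transcription factors. Within the medulla, cells of the basal type attach through the integrin chain Itgb4 and laminin chain Lamb3 and make the keratin Krt5. The level of a peak is its number of tags over the whole region per 10000000 library tags, called normalised tags from here on. It is therefore a total that grows with the width of the region, and tags per kb are given beside it. The mTEC-I libraries held 6461587 and 1702103.5 tags, against 7926038.5 to 15412132.5 in the other populations, and 33.4% and 33.3% of tags lay in merged peaks. A single tag was worth 1.55 normalised tags in replicate 1 and 5.88 in replicate 2, and 79.2% of the combined tags came from replicate 1. Strong peaks were therefore well counted in both libraries, while 191 and 1474 weak merged peaks stood at 0, which allows up to 4.64 and 17.6 normalised tags.

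The windows of 250 bases upstream of the annotated start are shown for 6 genes that the results turn on, so that their base composition can be set beside the marking. They are Meis2, Meis1 and Pax9, developmental transcription factors among the 5 genes with the highest summed level, Cd274 and Zfp36, with wide peaks over their start sites, and the marker Krt5. The sequences are RefSeq's, on GRCm38.p6, at chr2:116064620-116064869 (minus strand) for Meis2, chr11:19018970-19019219 (minus) for Meis1 and chr12:56695221-56695470 (plus) for Pax9. Cd274 is at chr19:29367188-29367437 (plus), Zfp36 at chr7:28379229-28379478 (minus) and Krt5 at chr15:101712906-101713155 (minus). Capitals mark matches on either strand to the TATA box TATAAA, the CCAAT box, the GC box GGGCGG, the MEIS protein site TGACAG, the AP-1 site TGANTCA or the interferon response core, of which none overlapped another here.
Meis2: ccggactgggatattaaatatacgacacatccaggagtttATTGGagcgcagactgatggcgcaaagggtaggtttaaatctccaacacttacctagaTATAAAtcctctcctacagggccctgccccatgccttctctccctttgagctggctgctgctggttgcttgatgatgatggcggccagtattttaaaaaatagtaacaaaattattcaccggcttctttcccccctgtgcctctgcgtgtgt
Meis1: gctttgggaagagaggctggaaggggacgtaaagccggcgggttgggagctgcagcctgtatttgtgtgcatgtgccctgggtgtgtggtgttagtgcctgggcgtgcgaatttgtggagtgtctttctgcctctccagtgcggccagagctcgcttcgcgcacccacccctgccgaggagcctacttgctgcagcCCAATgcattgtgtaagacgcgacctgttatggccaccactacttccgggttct
Pax9: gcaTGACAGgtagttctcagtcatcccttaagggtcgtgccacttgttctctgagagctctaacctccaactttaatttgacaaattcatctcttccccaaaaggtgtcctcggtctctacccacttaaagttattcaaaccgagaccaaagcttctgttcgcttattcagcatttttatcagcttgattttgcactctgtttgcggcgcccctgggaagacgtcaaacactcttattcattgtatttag
Cd274: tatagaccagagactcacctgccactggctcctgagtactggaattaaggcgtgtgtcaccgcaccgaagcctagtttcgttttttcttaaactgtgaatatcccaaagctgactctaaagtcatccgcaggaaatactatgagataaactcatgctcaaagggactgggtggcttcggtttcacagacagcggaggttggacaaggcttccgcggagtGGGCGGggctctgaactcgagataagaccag
Zfp36: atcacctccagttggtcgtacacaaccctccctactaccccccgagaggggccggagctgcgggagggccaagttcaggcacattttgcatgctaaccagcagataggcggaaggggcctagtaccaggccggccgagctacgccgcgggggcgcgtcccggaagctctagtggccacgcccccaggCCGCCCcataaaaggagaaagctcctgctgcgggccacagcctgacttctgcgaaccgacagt
Krt5: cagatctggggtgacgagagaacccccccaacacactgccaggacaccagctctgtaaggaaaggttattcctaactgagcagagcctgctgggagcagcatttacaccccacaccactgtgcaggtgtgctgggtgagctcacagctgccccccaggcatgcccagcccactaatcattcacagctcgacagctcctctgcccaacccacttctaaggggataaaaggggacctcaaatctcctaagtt

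The TATA box occurs in 12.4% of all 32851 upstream windows, the CCAAT box in 33.8%, the GC box in 32.7%, the MEIS site in 15.9%, the AP-1 site in 6.75% and the interferon response core in 2.98%. The Meis2 window held a TATA box and a CCAAT box, the Meis1 window a CCAAT box, the Pax9 window a MEIS site, and the Cd274 and Zfp36 windows a GC box each. No match was found in the Krt5 window. CpG pairs numbered 18 in Zfp36, 13 in Meis1, 11 in Cd274, 7 each in Meis2 and Pax9, and 2 in Krt5. The G and C share ran from 43.6% in Pax9 and 47.6% in Meis2 to 64.8% in Zfp36, beside a mean of 53.2% over all windows. Among these 6 genes, the merged peak spanned the start site at all but Krt5.

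Most of the strongest mTEC-I peaks were also among the widest. Levels in the list ran from 142.7 to 1134.9 normalised tags with a median of 192.3, and widths from 500 to 10428 bases with a median of 2138. The quartiles of the level were 164.8 and 240.7. Density had a median of 91.4 normalised tags per kb, quartiles of 84.1 and 100.1 and a full range of 63.7 to 783.1. The 100 strongest peaks had a median width of 6086 bases against 2128 for the other 6934, and a median density of 97.4 against 91.2 per kb. Level and width had a Spearman correlation of 0.86 over the 7034 peaks of the list, and level and density one of 0.18. The level is a total over the width, and the peaks share the same libraries, so these values are descriptions. Of the 100 strongest peaks 74 were among the 100 widest. Together the 100 strongest were 1.42% of the peaks and held 4.02% of the summed level.

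**Figure D1:**
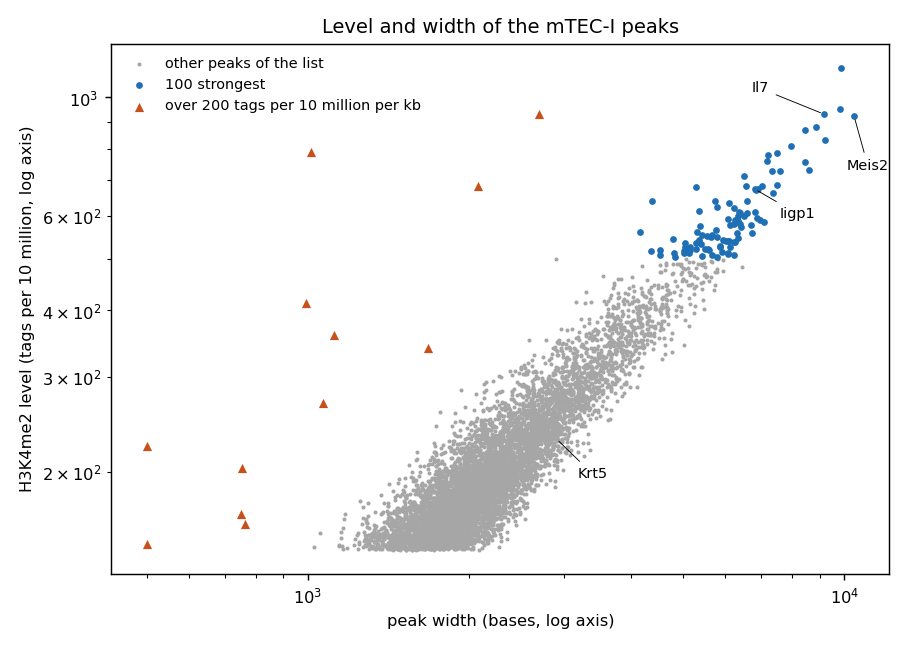
Level (normalised tags, log axis) against width (bases, log axis) of the 7034 mTEC-I peaks, with the 100 strongest in blue and the 12 regions over 200 normalised tags per kb as triangles. Most peaks lie along 1 band, from 142.7 normalised tags upward, and the triangles lie above it.

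The rank at which the 100 strongest end is no natural border. Tmem176b (508.3 normalised tags), Epha4 (507.7), Pde4b (506.5), Fzd8 (503.4) and Dusp6 (502.8) were the last inside it. Mxi1 (502.8), Slc43a2 (499.2), Pisd-ps3 (499.2), Apobec3 (498.5) and Hey1 (496.1) were the first outside.

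Homeobox transcription factors held many of the strongest peaks. The gene description named a homeobox or homeodomain for 10 of the 100 strongest peaks and for 0.697% of the whole list, in a search chosen after the values were seen. Among them were peaks of Meis2, Meis1 (2 peaks), Tgif1, Hoxa2, Mkx, Isl1 and Six2. Meis2, a cofactor of Hox proteins, had the widest peak of the list, chr2:115892112-115902540 (mm9), which ranked 5 by level at 922.4 normalised tags. The merged peak around it, 25771 bases wide, held 1908.20 and 1692.02 in mTEC-I replicates 1 and 2, the highest level in either library. The peak of Eya1, a transcriptional coactivator of the embryonic thymus, held 1132.07 and 1230.83. In the list itself the peaks of Meis2 (922.4) and Eya1 (812.1) lay far above the median list peak of 192.3.

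Further homeobox genes had wide peaks. At Hoxa2, which patterns the hindbrain and second pharyngeal arch, a peak of 7078 bases ranked 18 by width and 46 by level, and its merged peak held 1092.61 and 969.39. Neighbouring Hoxa3, required for thymus formation, was low, with a gene sum of 35.59 and 47.00 (rank 14214 of 15739). Peaks in a Hox cluster go to the nearest start site, so the 2 genes' values depend on that assignment. Tgif1, a repressor in TGF-beta and retinoid signalling, held 762.97 and 740.26, and Isl1, a LIM homeobox factor of heart and nerve development, 1035.35 and 907.70 in the merged peak of its strongest list peak. The strongest peak of all spanned the start of the noncoding gene 3110039M20Rik, at chr12:50486458-50496316 (mm9), with 1134.9 normalised tags over 9858 bases. Its merged peak held 1495.76 and 1639.15.

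Several of the strongest or widest peaks lay near genes of immune signalling and cell survival, a grouping made after the values were seen. Il7, the cytokine that early thymocytes need, ranked 4 by level and 5 by width, with 931.0 normalised tags over 9160 bases and 1398.26 and 1380.64 in its merged peak. Birc2, an inhibitor of apoptosis that restrains the noncanonical NF-kappaB pathway, ranked 6, with 990.47 and 1119.20. Cd274, which encodes the checkpoint ligand PD-L1, ranked 7, with 1090.29 and 1039.89. Iigp1, an interferon-inducible GTPase, ranked 25 and held 686.36 and 640.38. Usp18, which removes the interferon-induced protein Isg15 from its targets, ranked 22 by width, and its merged peak held 639.94 and 622.76. Zfp36, which destabilises cytokine transcripts, ranked 25 by width and held 643.80 and 719.70. The merged peak spanned the annotated start at all 6 genes.

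The rest of the strongest peaks lay near genes of various kinds. The second strongest, 9800 bases on chromosome 8 at 952.4 normalised tags, was nearest to the start site of 9530052E02Rik. The centre of its merged peak lay in an exon of Irs2, an adaptor of the insulin receptor. Setd1b, a methyltransferase for H3K4, held 1116.60 and 1060.45. Chd2, a chromatin remodeller, held 769.93 and 1042.83, the pair of libraries furthest apart among the 25 strongest peaks at a ratio of 1.35. Fgf9, a fibroblast growth factor, held 769.16 and 834.26, and Pcdh7, a protocadherin, 1042.31 and 960.58. Protocadherins had 3 of the 100 strongest peaks (Pcdh7, Pcdh17 and Pcdh10) and 0.156% of the list. Further members of the 25 strongest were peaks nearest to Zfp516, Arhgef17, Bcl11a, 2010111I01Rik, Nfe2l1 and Bahcc1, and those nearest to Tsc22d2 and Ccnd2 were added by width. Of the 25 strongest peaks 19 were also among the 25 widest.

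**Figure D2:**
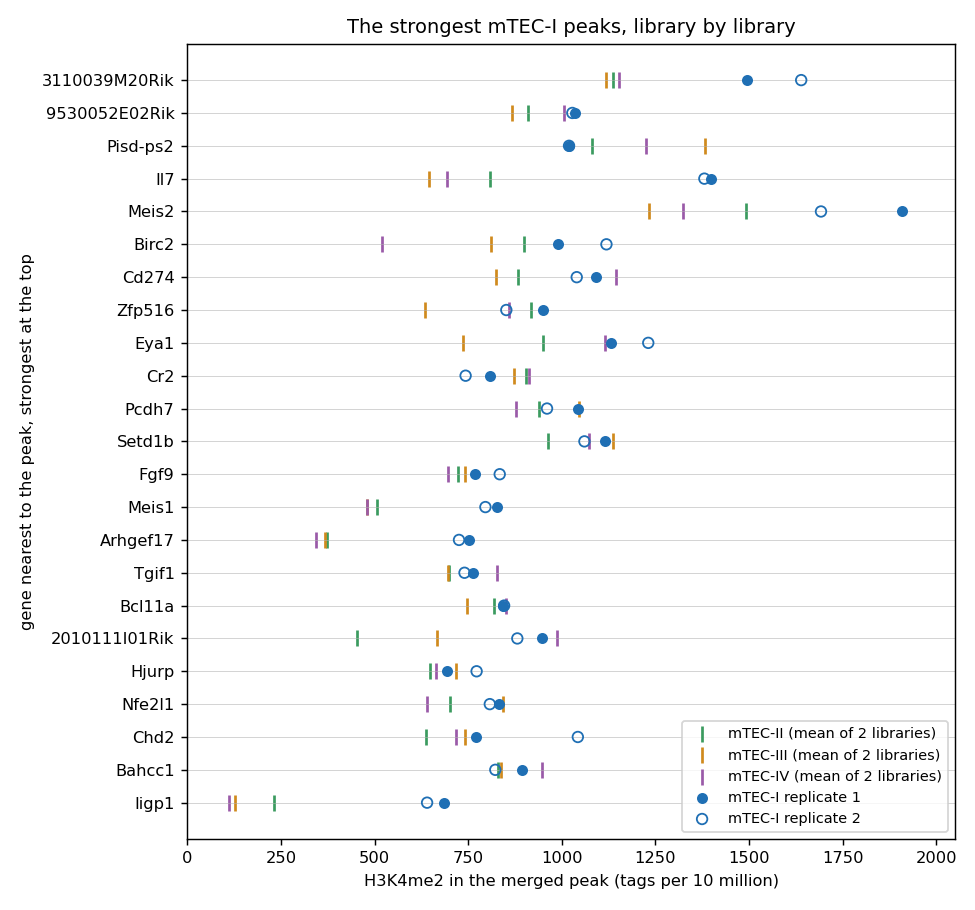
H3K4me2 level (normalised tags) in the merged peak of 23 of the 25 strongest mTEC-I list peaks, with replicate 1 as filled and replicate 2 as open circles and the mean of each other population as a vertical tick. The replicates differ most at Chd2, by a ratio of 1.35. The peaks were chosen for a high level in mTEC-I. Both replicates lie below the means of all 3 other populations at Pisd-ps2 and Cr2, and above them at several peaks. Among these are Il7, Arhgef17, Iigp1, 3110039M20Rik, the distal Meis1 peak, Meis2, Birc2, Eya1, 9530052E02Rik, Fgf9 and Chd2.

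A few strong regions stood apart by density. A region of 1012 bases at chr1:197067244-197068256 (mm9), 64839 bases from the start of Cr2, held 792.5 normalised tags, or 783 per kb. Pisd-ps2, a pseudogene of phosphatidylserine decarboxylase, had 346 per kb and the region at the start of Hjurp, a chaperone of centromeric histone, 330. The other 22 of the 25 strongest peaks had 85.0 to 128 per kb. The Cr2 region held 807.08 and 743.20 in mTEC-I and 904, 873 and 911 as population means of mTEC-II, mTEC-III and mTEC-IV, so both mTEC-I libraries lay below these means. Pisd-ps2 is a copy of a gene with further copies (Pisd-ps3 was also dense, at 172 per kb), and its value is uncertain, because the handling of reads that match several copies is not stated. In all, 12 regions of the list exceeded 200 per kb, and among those at least 1 kb wide were also regions nearest to Gm7102 (322 per kb), 6820431F20Rik (252) and Serf1 (203). The next by density were Pisd-ps3, 2700062C07Rik (147), Nfatc1 (147) and Ndrg4 (146).

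Strong peaks lay over start sites and extended into the gene. A start site lay within 1 kb of the merged peak's edge, or inside it, for 96% of the 100 strongest peaks (exact 95% binomial interval 90.1% to 98.9%, counting error only) and for 91.1% of all 7034. The interval of the 100 strongest reaches down to the share of the list. The deposited annotation, which looks at the centre of a peak, placed 19% of the 100 strongest and 33.8% of all peaks in the class promoter-TSS, and 51% and 45.0% in introns. The centre lay within 2.5 kb of a start site in 74% of the 100 strongest (64.3% to 82.3%) and 88.2% of all. It was downstream of the start in 74% and 72.1%. Wider peaks have centres further from the start, and width and level went together here.

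Few of the strongest regions were distal. More than 10 kb from any annotated start lay 3% of the 100 strongest peaks (0.623% to 8.52%) and 6.64% of the list. Apart from the dense Cr2 region, the strongest was an intergenic peak of 8460 bases at chr11:18770128-18778588 (mm9), 143953 bases from the start of Meis1, which ranked 14 by level and 8 by width. It held 827.97 and 796.07 in mTEC-I, and its means in mTEC-II, mTEC-III and mTEC-IV were 507, 480 and 480. Another distal peak, 131713 bases from the start of Pax9 in an intron of Slc25a21, held 567.97 and 467.07. Strong distal peaks were also nearest to Mir15a (inside Dleu2), Gm15713 (inside Zbtb20), Pawr, Hfe2, Fat3, 2810429I04Rik and Lincppara. The nearest start site does not show which gene such a region acts on.

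The ranking at the top was shared by both mTEC-I libraries although replicate 2 was shallow. Of the 100 strongest merged peaks of replicate 1, 81 were among the 100 strongest of replicate 2 and all 100 among its 500 strongest, with a median rank of 51.5 and a lowest rank of 388. The ratio of replicate 2 to replicate 1 over these 100 peaks had a median of 0.971 and ran from 0.682 to 1.35, and they held a median of 127.75 tags in replicate 2. Over all 29470 merged peaks outside the mitochondrial genome the libraries had a Pearson correlation of 0.92 on the log2(value + 1) scale. Over all merged peaks, weak ones included, the log2 difference between replicates had an SD of 0.835 in mTEC-I and of 0.264 to 0.384 in the other populations.

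Genes were also ranked by the sum of all merged peaks nearest to their start. Meis2 ranked 1 of 15739 genes, with 3159.44 and 2961.05 normalised tags over 9 merged peaks that cover 50.4 kb. Nfia, a nuclear factor I protein, followed with 2850.69 and 2975.74 over 23 peaks and 62.5 kb, and Meis1 with 2515.64 and 2323.59 over 10 peaks and 39.2 kb. Pax9, needed for development of the pharyngeal pouch from which the thymus forms, ranked 5 with 2045.16 and 1739.03. Its 4 merged peaks were dense for a gene sum, at 74.4 normalised tags per kb against a median of 46.4 over all genes. Isl1 ranked 8 with 1906.65 and 1700.85, Eya1 11 with 1604.09 and 1797.80, and Il7 19 with 1462.48 and 1424.71. The noncoding genes Lincppara (rank 4), beside Ppara and Wnt7b, 3110039M20Rik (10) and 1810026B05Rik (12), beside Chd2, stood among them. Also in the top 25 were Pde4b, Tcf4, Zfp217, Arid1b, Smad1, Tgif1, Cxxc5, Nfib, Efnb2, Stox2, Irf2bp2, Zfp608 and Foxp1.

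These 25 genes had 2 to 23 merged peaks over 18.8 to 62.5 kb. Density ran from 37.0 per kb at Smad1 to 95.8 at 3110039M20Rik, around the median of all genes. By the population's own list, Meis2 held the most DNA, 6 peaks with 25.6 kb, followed by Meis1 with 4 peaks and 22.6 kb, Lincppara with 6 and 20.2 kb, Nfia with 5 and 16.8 kb and Pax9 with 3 and 16.3 kb. Such loci were rare. Of 6594 genes with a list peak 6209 had exactly 1, and 41 had 3 or more.

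Krt5 held 413.21 and 408.32 normalised tags and ranked 1524 of 15739 genes, Itgb4 330.41 and 284.95 (rank 2963), and Lamb3 164.05 and 190.94 (rank 7792). In the peak list they ranked 2034, 1502 and 4316 of 7034. Lamb3 had 1 merged peak, at 85.3 normalised tags per kb, above the median of 46.4 over gene sums, while its list peak was below the list's median density at 85.4 per kb. Krt5 had a peak on each side of its start site: one of 4300 bases over the gene, with 287.08 and 249.69, and one of 1672 bases upstream, with 126.13 and 158.63.

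Marker levels in the other populations were lower in every library. Krt5 held 99.92 and 85.52 (mTEC-II), 179.79 and 187.23 (mTEC-III), and 32.99 and 26.29 (mTEC-IV). On the log2(value + 1) scale mTEC-I exceeded the mean of the other 3 populations by 2.35 ± 0.13 (SE) for Krt5 (limma with Benjamini-Hochberg adjustment over all genes, adjusted p = 7.0e-09). The difference was 3.36 ± 0.30 for Lamb3 (adjusted p = 6.4e-07), which held 4.95 to 30.5 elsewhere. It was 0.41 ± 0.090 for Itgb4 (adjusted p = 0.0022), which held 216.08 to 242.02 elsewhere. Both libraries of mTEC-I lay above all 6 others for all 3 genes.

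Gene lists were placed by their members' rank among the 15739 genes with a merged peak. Epithelial transcription factors had the highest median percentile, 97.0, with 17 of 24 members in the top 10% of genes, followed by immediate-early and stress genes (95.9, 16 of 24), Notch and Wnt genes (94.2, 10 of 18) and cortical epithelial genes (91.6, 8 of 14). Interferon-induced genes (85.3), NF-kappaB and TNF receptor genes (84.9), basal and junctional genes (84.5) and housekeeping genes (81.6) lay close together. The order by density was another one. The median density of the epithelial factors was 44.3 normalised tags per kb, below the 46.4 of all genes. Interferon-induced genes had 71.0, the 3 markers 68.8, housekeeping genes 55.1 and fibroblast genes 54.8. Immediate-early and stress genes had 54.3, MHC class I genes 53.7 and basal genes 52.3, so basal genes were not denser than housekeeping genes. The median percentile of the housekeeping list also lay far over 50, so a high percentile is not particular to the epithelial lists.

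**Figure D3:**
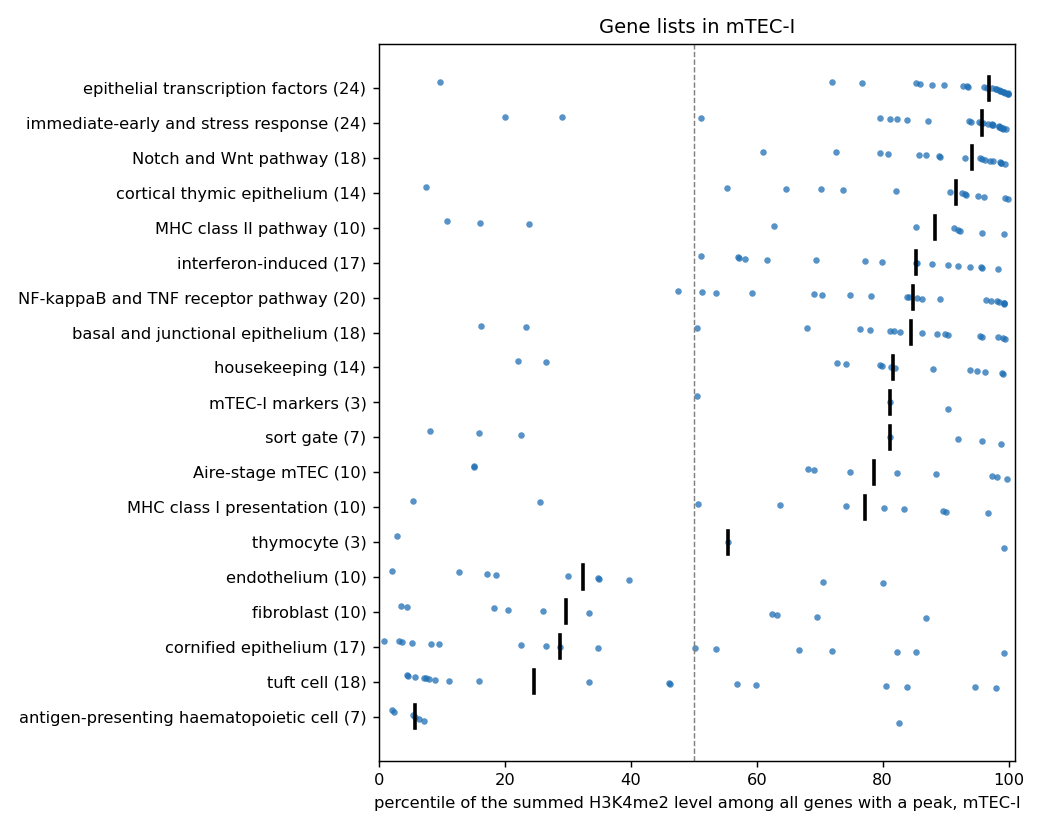
Percentile of each list member's summed H3K4me2 level in mTEC-I among all 15739 genes with a merged peak, with the number of measured members in brackets and the list's median as a black bar. Epithelial transcription factors lie furthest right and antigen-presenting haematopoietic cell genes furthest left.

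Basal and junctional genes were marked at 18 of 20, and 16 of the 18 (88.9%) had a peak in the mTEC-I list. Of all 15739 genes with a merged peak 41.9% had one. The share was 94.1% in the interferon-induced list and 87.5% in that of epithelial transcription factors, so it is not particular to basal genes. The highest were Trp63 (968.03 and 1001.71), the master factor of stratified epithelia, Lifr (872.85 and 940.01), a cytokine receptor chain, Dst (717.31 and 775.51), a linker of hemidesmosomes, and the integrin chain Itga6 (595.06 and 549.31). The lowest was Col17a1, a hemidesmosome collagen, at 85.12 and 52.88. Against the mean of the other populations 10 of the 18 rose and none fell, where 17.2% of all tested genes were called higher and 17.7% lower (34.9% in either direction). The housekeeping list, with 8 of 14, and the fibroblast list, with 7 of 10, had a similar or larger share of higher calls. Krt17 (444.16 and 364.26, log2 1.36), Krt14 (261.55 and 308.44, log2 1.42) and Pdpn (338.15 and 299.63, log2 1.21) were among the 10, and were picked here after their values were seen. Trp63 did not pass (0.05 ± 0.05 SE, adjusted p = 0.45) and held 851 to 1078 as means elsewhere. The merged peak that spans its start, around the list peak of rank 110, held 526.19 and 519.94 in mTEC-I and means of 349, 439 and 304 in mTEC-II, mTEC-III and mTEC-IV. The count of higher calls depended on the setting. It was 8 with DESeq2, 8 with library weights (a limma fit that gives each library its own weight) and 9 with edgeR. When only peaks up to 20 kb from the start were summed it was 13. None of the 18 was lower in these settings. The higher call of Itga6 was lost with DESeq2 and with library weights.

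Epithelial transcription factors were strongly marked in mTEC-I whether or not they were stronger there. Pax9, Eya1 and Trp63 were among the highest, and Hoxa3 was lowest. Against the other populations, where 17.2% of all tested genes were called higher and 17.7% lower, 8 of 24 rose and 10 fell. Without mTEC-I replicate 1 these counts were 6 and 12, and without replicate 2 they were 9 and 9. Eya1 rose (0.27 ± 0.05 SE, adjusted p = 0.0014), although mTEC-IV held more, 2131 against 1701. Pax9 was called higher (0.30 ± 0.06 SE, adjusted p = 7.9e-04), a call that ended when only peaks up to 20 kb from the start were summed (0.14, adjusted p = 0.082).

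Immediate-early and stress genes held strong marks in both libraries. The counts of calls below stand beside 17.2% of all tested genes called higher and 17.7% called lower. Ier2 (1178.50 and 1004.64), Fos (913.09 and 945.89), the chaperone gene Hspa8 (895.30 and 898.88) and Fosl2 (761.42 and 895.95) led, and Hspa1a was lowest (53.39 and 117.50). Here 6 of 24 rose and 2 fell, with 4 and 0 when only peaks up to 20 kb from the start were summed, 4 and 2 without mTEC-I replicate 2 and 11 and 5 without replicate 1. Notch and Wnt genes were led by Hey1 (998.99 and 1092.77), a target of Notch, Wnt10a (823.33 and 866.58), Notch2 (862.01 and 813.71) and the ligand Jag1 (785.41 and 822.51), with Jag2 lowest (210.47 and 205.63). Of these 18 genes 7 rose and 1 fell, with 6 and 3 without mTEC-I replicate 1 and 8 and 0 without replicate 2.

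Interferon-induced genes were marked at 17 of 19, and 14 of the 17 rose while none fell, with 11 (with library weights, a limma fit that gives each library its own weight) to 15 rising under each alternative. Usp18 (786.19 and 719.70), the antiviral gene Oasl2 (544.76 and 584.57) and the RNA sensor Ifih1 (527.74 and 467.07) were among the highest, and Rsad2, an antiviral enzyme, was lowest (188.03 and 170.38). Ifit3, picked after its values were seen, held 352.85 and 334.88 in mTEC-I and means of 20.6 to 58.9 elsewhere. Ifit genes have near-identical copies, so how reads were shared between them is uncertain. Among all tested genes 17.2% were called higher and 17.7% lower. NF-kappaB and TNF receptor genes were led by Nfkb1 (872.85 and 1036.96), Nfkbia (980.42 and 895.95), Nfkbiz (923.93 and 945.90) and Tnfaip3 (762.97 and 825.45), with Tnfrsf1b lowest (188.03 and 149.81). Of the 20 genes 9 rose and 4 fell, and the count of those that rose was 5 without mTEC-I replicate 2, 3 without either mTEC-II library, 4 without mTEC-III replicate 1 or mTEC-IV replicate 1, 2 with DESeq2, and 1 with library weights.

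Antigen presentation genes were marked in these cells, which were sorted as MHC class II low. H2-Eb1 (961.07 and 931.20), H2-Ab1 (585.77 and 543.45), H2-DMb2 (484.41 and 417.13) and H2-Aa (456.54 and 431.82) led the MHC class II list, and H2-Eb2 was lowest (51.07 and 41.13). Of its 10 measured members 4 rose and 1 fell, where 17.2% of all tested genes were called higher and 17.7% lower. The summed level of the list was 3609 in mTEC-I, below 4131 in mTEC-II and above 3223 in mTEC-III and 2267 in mTEC-IV. In the MHC class I list, B2m (672.44 and 564.01), Tap1 (445.71 and 364.26), H2-K1 (390.00 and 405.38) and Tap2 (342.79 and 305.51) led and Psmb9 was lowest (20.12 and 26.44), and 3 of 10 rose (1 without mTEC-I replicate 1 or with library weights). Among the genes of the sort gates, Epcam held 826.42 and 846.01, L1cam 53.40 and 82.26, and Ptprc, which encodes CD45, 34.05 and 35.25. Of the 7 gate genes 2 rose and 3 fell. The highest housekeeping genes included Eef1a1 (876.72 and 975.26), Ubb (540.12 and 649.20) and Actb (511.49 and 549.32), with Hprt lowest (86.67 and 99.88). Of 14 measured 8 rose and 1 fell, and the number that rose was 3 without mTEC-I replicate 2, 5 without mTEC-III replicate 1 or mTEC-IV replicate 1 or with library weights, and 4 with DESeq2.

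Lists of other epithelial stages ranged from high to low. The cortical list was led by Il7, Prss16 (943.27 and 1051.64), Kitl (625.23 and 552.26) and Krt8 (514.58 and 558.13), while Psmb11, the thymoproteasome subunit of cortical cells, was lowest (41.01 and 23.50). Here 6 of 14 rose and 3 fell, where 17.2% of all tested genes were called higher and 17.7% lower. Genes of the Aire stage were measured at 10 of 14, since Aire, Cd86, Ccl22 and Ccl17 had no merged peak assigned. They were led by Fezf2 (1148.32 and 1219.08), Tnfrsf11a (656.96 and 804.89), Irf8 (636.84 and 707.96) and Cd80 (371.42 and 390.70), with Hdc lowest (72.75 and 55.82), and 1 rose and 4 fell. The 1 higher call was lost with DESeq2 and with library weights. It was also lost without mTEC-I replicate 2, either mTEC-II library, mTEC-III replicate 1 or either mTEC-IV library. The call of Fezf2 (-0.55 ± 0.05 SE) ended when only peaks up to 20 kb from the start were summed (0.02, adjusted p = 0.79). Cornified genes had a median percentile of 28.8, with Klf4 (966.47 and 934.14), Grhl3 (335.83 and 349.57), Krt10 (315.71 and 314.32) and Ovol1 (273.93 and 226.19) at the top and Krt77 (6.19 and 0) at the bottom, and 1 of 17 rose while 9 fell (0 and 12 without mTEC-I replicate 1; the higher call was also lost without either mTEC-II library or mTEC-IV replicate 2 and with library weights). Tuft cell genes had a median percentile of 24.6, with Sox9 (711.90 and 728.51), Dclk1 (513.04 and 534.65), Pou2f3 (342.80 and 314.33) and Alox5ap (296.36 and 308.45) at the top and Avil (20.12 and 17.63) at the bottom, and 1 of 18 rose while 12 fell (2 and 13 without mTEC-I replicate 2).

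Of the markers of cells outside the epithelium, 1 of 3 measured thymocyte genes (33.3%) lay in the top 10% of genes. The basal and junctional list had the same share, and the other 3 lists of such cells had 0 members there. Among all tested genes 17.2% were called higher and 17.7% lower. Of 13 thymocyte genes 10, among them Cd3e, Cd4, Cd8a and Rag1, had no merged peak, and of the others Bcl11b held 1030.71 and 851.89, Tcf7 232.15 and 149.81 and Themis 18.57 and 5.88, with 0 higher and 2 lower (1 and 2 without mTEC-I replicate 2). Antigen-presenting haematopoietic genes had a median percentile of 5.74, from Zbtb46 (318.03 and 317.25), Csf1r (27.08 and 35.25), Flt3 (33.27 and 23.50) and Itgax (15.48 and 35.25) to Cd79a (6.19 and 11.75), with 0 of 7 higher and 3 lower, or 1 lower with library weights or without any single library other than mTEC-I replicate 2 and mTEC-III replicate 2. Endothelial genes had a median percentile of 32.4, led by Esam (318.81 and 279.07), Kdr (248.39 and 237.94), Sox17 (154.76 and 141.01) and Sox18 (116.07 and 155.69) with Cdh5 lowest (10.83 and 5.88), and 4 of 10 were higher and 3 lower (2 and 3 without mTEC-I replicate 2, and 1 and 2 with peaks up to 20 kb from the start). Of 11 olfactory and vomeronasal receptors, 1 (Vmn2r1) had a merged peak, at 88.21 and 73.44, and it was called higher. The fibroblast list was low in level, with a median percentile of 29.7 and Col1a2, Col3a1 and Lum without a peak. Yet 7 of its 10 measured genes rose and 2 fell, and 4 to 7 rose under the alternatives. Its summed level was 1421 and 1513 in mTEC-I against means of 746 to 1124 elsewhere. Pdgfra (304.88 and 414.19), Prrx1 (256.13 and 223.25), Col6a1 (211.25 and 220.32) and Col5a1 (199.64 and 226.19) led and Thy1 was lowest (12.38 and 17.63). The part of fibroblasts in these values was not tested, and more cells of a type and more mark per cell cannot be told apart in sorted bulk samples.

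The strongest regions of mTEC-I were strong in the other populations as well. Of its 100 strongest merged peaks, 68, 64 and 52 were among the 100 strongest of mTEC-II, mTEC-III and mTEC-IV, and 96, 91 and 90 among their 500 strongest. The furthest behind in all 3 was Iigp1, which ranked 2813, 10249 and 12422 there, with means of 233, 127 and 111 normalised tags. Arhgef17, a guanine nucleotide exchange factor, held 752.14 and 725.57 in mTEC-I and means of 374, 368 and 345 elsewhere, and Il7 means of 809, 646 and 693. Hoxa2 held means of 548, 268 and 421. Of the 100 peaks 55 were called higher and 6 lower, where 14.7% and 23.1% of all tested peaks were called (37.8% in either direction). They were chosen for a high level in mTEC-I, so these counts are not read further. Of the 25 highest gene sums, 15, 14 and 10 were among the top 25 of mTEC-II, mTEC-III and mTEC-IV.

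The deposited list leaves out some regions that hold many tags. Of 9420 merged peaks with an mTEC-I mean of at least 142.7 normalised tags, the lowest level in the list, 2605 overlapped no list peak. Of the 10 strongest of these, 9 were 7825 to 14689 bases wide with 33.6 to 56.8 normalised tags per kb. The other was a narrow, dense region nearest to Cbr3, 624 bases at 785 per kb, with 559.46 and 420.07. Foxn1, the transcription factor on which thymic epithelial development depends, was one of the wide regions and is named here after its values were seen. Its merged peak of 13638 bases held 460.41 and 455.32, rank 454 of 29470, at 33.6 per kb. It held means of 608, 441 and 180 in mTEC-II, mTEC-III and mTEC-IV. Krt8 and Krt18, keratins of simple epithelia, had no list peak either, with 355.18 and 346.63 in the strongest merged peak of Krt8 and 407.02 and 376.01 in that of Krt18. The absence of a gene from the mTEC-I list is therefore no measure of its mark. The list starts higher than those of the other populations, whose lowest levels were 33.4 to 41.8 and which held 19321 to 23949 peaks. The control experiment behind its folds was shallow, since 76.6% of the peaks stood at its lowest value of 0.5 tags.

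Peaks of the X chromosome were scarce among the strong regions. The mTEC-I list held 8 peaks on X (0.114%), none of them among the 100 strongest. The 551 merged peaks on X had a median mTEC-I level of 76.0 normalised tags, close to the 78.3 of the 28919 on autosomes, but their 90th percentile was 146 against 254. At or above 142.7 stood 10.9% of the merged peaks on X and 32.4% of those on autosomes. The shares were 11.3% and 32.4% in replicate 1 and 12.2% and 31.9% in replicate 2. Among the other populations mTEC-II had 7.62% and 28.8%, mTEC-III 10.2% and 31.2%, and mTEC-IV 11.3% and 31.9%, so the low upper range of X was common to all 4 populations. The strongest X peak of the list was at Bcor, a corepressor (rank 959, 353.63 and 370.13). The others were nearest to Ftx (2 peaks), a noncoding RNA of the X-inactivation centre, Kdm5c, Ddx3x, Kdm6a, Eif2s3x and Pcdh19. In mice Kdm5c, Ddx3x, Kdm6a and Eif2s3x are known to escape X inactivation. The peak nearest to Eif2s3x was intergenic, 34566 bases from its start. The labels give no sex, and a part of X inactivation in these levels was not tested.

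**Figure D4:**
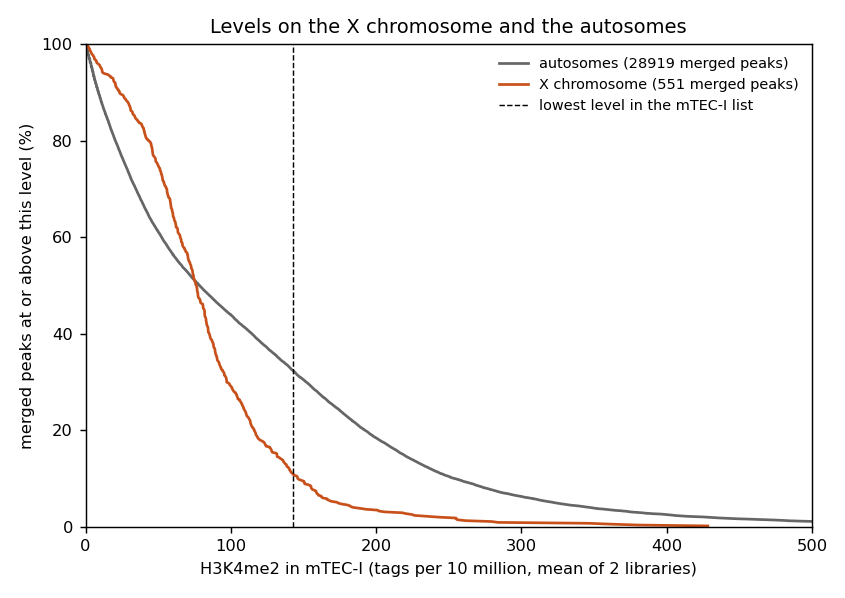
Share of merged peaks (%) at or above a given mTEC-I level (normalised tags, mean of 2 libraries) for autosomes and the X chromosome, with a dashed line at 142.7, the lowest level of the mTEC-I list. The medians of 78.3 and 76.0 are close, and at the dashed line the shares are 32.4% and 10.9%.

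MicroRNA genes were the nearest starts of several strong peaks, and 5 with epithelial or haematopoietic roles are shown by their main mature strand, picked after the values were seen. The seed, bases 2 to 8, is in capitals, and the 5 seeds differ. The sequences are RefSeq's on GRCm38.p6.
mmu-miR-205-5p: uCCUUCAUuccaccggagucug
mmu-miR-125b-5p: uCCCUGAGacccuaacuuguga
mmu-miR-99a-5p: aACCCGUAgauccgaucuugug
mmu-miR-200b-3p: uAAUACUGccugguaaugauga
mmu-miR-15a-5p: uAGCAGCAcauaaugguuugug

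Mir205, a microRNA gene of stratified epithelia, had a list peak of 3626 bases (rank 228), and the merged peak spanned its start. It held 501.42 and 437.69 in mTEC-I and means of 112, 277 and 50.8 in mTEC-II, mTEC-III and mTEC-IV. Mir125b-1 (rank 146) held 537.02 and 546.38 and means of 330, 146 and 158. Mir99a held 522.32 and 478.82, and Mir200b, of the family that restrains the mesenchymal factors Zeb1 and Zeb2, 499.88 and 511.13. The peak assigned to Mir15a (rank 89, 584.22 and 596.32) lies 14229 bases away, in an intron of Dleu2, from which Mir15a is transcribed. Some microRNA names stand for a host gene: the peak of Mir6896 lies in an intron of Dst, that of Mir3081 in Boc and that of Mir7009 in Anxa5. Whether these microRNAs were expressed was not measured.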

How the data were processed

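H3K4me2 ChIP was done with a high-throughput protocol derived from iChIP on sorted, formaldehyde-fixed cells, per the labels' protocols. The processing notes of the submitters name bcl2fastq 2.15.0.4, Picard 1.108 and the build mm9. No source used here gives the aligner, the handling of duplicate reads, the control experiment or how peaks were selected. The deposited mTEC-I list is in HOMER's findPeaks format, per the file headers, and gives the signal of each peak as tags per 10000000 of the combined libraries. It also gives the authors' fold over a control experiment, the ratio of scaled tags to control tags, and the authors' p-value against it, used here only to describe or filter peaks. The deposited merged table holds the signal of each library per 10000000 tags, made with HOMER's annotatePeaks, per the file headers. All values of the 8 libraries were within 0.1 of a multiple of 0.5 tags, and what 0.5 tags stand for is not stated. As whole steps 100% of values were recovered, and edgeR 4.0.16 on these called 4455 peaks higher and 6254 lower.

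Width is end minus start. A list peak took the values, gene and location of the merged peak it overlaps (by at least 1 base). A gene's level is the sum of the merged peaks whose nearest start site is that gene's, so a peak inside one gene can count for a neighbour. Values of 10 or more per 10000000 tags were required in 2 or more libraries, and peaks and gene sums that met this were tested with limma 3.58.1 (R 4.3.3, trended variance) on log2(value + 1) over all 8 libraries. The contrast was mTEC-I against the mean of the other 3 populations, with Benjamini-Hochberg adjusted p under 0.05. This scale understates the change of low peaks. On simulated data with these library sizes limma recovered most changed peaks but made more false calls than its threshold allows, nearly all of them lower in mTEC-I, so calls near the threshold, lower ones above all, are uncertain. Named are the 25 strongest and 25 widest peaks, the 25 genes with the largest sums, the 10 densest and 10 strongest distal peaks, the 5 on each side of rank 100, the 3 markers, and the 4 highest and the lowest member of each list. Members and lists were chosen with earlier results of these data known. The mitochondrial peaks and the whole-cell extracts entered no comparison. DESeq2 1.42.0 was an alternative. Intervals and floors (3 tags) cover counting error only. No genome of the build mm9 was used, so peak sequences are not printed, and GRCm38.p6 coordinates belong to RefSeq sequences only. Results for a few genes that the rule would name are not reported here.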

Additional observations from a re-analysis of the deposited data

Results flagged for a closer look

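The mTEC-I list holds 2 peaks on the mitochondrial genome, which carries no histones and entered no ranking. The authors' list gives 3236.9 and 2769.6 normalised tags for them, above every nuclear peak. In the merged table the first held 479.76 in mTEC-I replicate 1 and 13703.63 in replicate 2, and the second 348.21 and 11521.04. Together they took 0.0083% and 0.252% of the tags of these libraries. Of the other populations mTEC-II replicate 1 was highest, at 2191.78 and 1712.61, and the remaining 5 libraries held 111.28 to 346.92. Of the 8 libraries mTEC-I replicate 2 is the shallowest and mTEC-II replicate 1 the deepest.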

How the results depend on the processing

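Of 129 alternative values 122 kept their direction and their side of the threshold or stayed within the limits set for them. This tally is a loose one. Of the 129 values 48 belong to the markers, all of them kept. The limits for counts were wide, since 1902 genes higher with DESeq2 stayed within them, beside 2702 in the main fit. The share of the 100 strongest peaks at a start site, 96%, was 74% when the centre had to lie within 2.5 kb, 19% by the deposited promoter-TSS annotation and 80% when peaks were ranked by tags per kb. Ranked per kb, 0% of the 100 strongest were among the 100 widest (74% by level), and 26% of the 100 strongest merged peaks of replicate 1 were among those of replicate 2 (81% by level). By definition a ranking per kb divides by width. The start-site share by single libraries, which ranks merged peaks, was 91.0% to 94.0%.

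Leaving out each library in turn gave 3033 to 5848 peaks higher and 5296 to 8487 lower (4338 and 6814 with all), and 1992 to 3587 genes higher and 2319 to 3601 lower (2702 and 2783). A population left with 1 library is assumed to vary like the others. The markers kept their calls in all 48 alternatives, with log2 differences of 0.31 to 0.52 (Itgb4), 2.30 to 2.40 (Krt5) and 3.16 to 3.56 (Lamb3) when libraries were left out and a highest adjusted p over all alternatives of 0.0184. With the replicate number as a block 4281 peaks were higher and 6747 lower, and 2662 genes higher and 2752 lower. The replicate differences of populations had correlations of -0.0125 to 0.0159. They include weak peaks with large counting error, so they cannot show whether libraries of the same number were handled together. With library weights estimated by limma, added after seeing the data, 1807 peaks and 1462 genes were higher and 4688 peaks and 2062 genes lower. In the simulated data edgeR made fewer false calls than limma, and limma with weights more. The regions over 200 per kb, the mitochondrial peaks and the list counts under each setting were examined as alternatives chosen after seeing the data. Depth limits weak peaks in mTEC-I replicate 2, where 3 tags are 17.6 normalised tags. Distances and gene names follow the deposited nearest-start annotation.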
